A study of Mus musculus with 39 samples.

Results

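Ribosome biogenesis genes encode the proteins that transcribe ribosomal RNA, cut and modify it in the nucleolus and fold it into the small and large ribosomal subunits. A set of 39 of them was followed through RNA sequencing of mouse muscle and muscle stem cells. The genes were chosen by symbol, with earlier results of these data known. Each had a row in both deposited tables, which makes 39 of the 16979 rows of the labelling and inhibition table and 39 of the 13938 rows of the fixation table. By role they fall into 3 genes of the RNA polymerase I core, 4 of the box C/D small nucleolar ribonucleoprotein (snoRNP), 3 of the box H/ACA snoRNP, 6 nucleolar factors, 12 factors of the small subunit and 11 of the large subunit.

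RNA polymerase I makes a single long precursor in the nucleolus. Box C/D snoRNPs methylate its riboses and box H/ACA snoRNPs turn uridines into pseudouridines, each guided by a small nucleolar RNA (snoRNA), many of which are cut out of the introns of ribosome biogenesis genes themselves. The small-subunit processome and a series of pre-large-subunit particles then process the precursor. Muscle stem cells (satellite cells) rest with little RNA in uninjured muscle, enlarge and raise ribosome production when they activate, and the transcription factor Myc is the best known activator of these genes.

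The study sequenced polyadenylated RNA of 39 libraries in 10 groups, to compare the RNA made by stem cells in the animal with that made or lost while the cells are isolated. The injected animals were Pax7CreER/+: UPRTHA/+, in which Pax7-CreER acts in muscle stem cells and UPRT lets a cell place the uracil analogue 4-thiouracil (4tU) in new RNA. For 3 groups, 4tU was injected and tagged RNA was pulled down from hindlimb muscle: at intervals of 12 h over 4 d (4 d label), at intervals of 12 h over 1 d (1 d label), or 6 h ahead of collection (6 h label). For the isolation label, 4tU was present while stem cells were purified, which took about 6 h, and tagged RNA was pulled down from the purified cells.

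The remaining 6 groups held total RNA: hindlimb muscle (whole muscle), purified stem cells (isolated cells), stem cells isolated with the transcription inhibitor alpha-amanitin or with its solvent control DMSO, stem cells sorted from mice perfused with 1% paraformaldehyde (fixed) and sorted cells of mice that were not perfused (unfixed). Input was 500 pg of RNA in the labelling and inhibition libraries and 1 ng in the fixation libraries. Every group held 4 libraries except the unfixed group with 3. The labels mark the total RNA groups as without 4tU, and the protocol describes whole muscle and isolated cells as the RNA from which the pull-downs were made. The labels give no age or sex, and name a genotype for the injected mice only, and a pull-down from muscle without UPRT was not analysed here. Whether each replicate is an animal of its own is not in the labels, so p-values rest on a spread among libraries that may be technical only.

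Levels are in the authors' RPKM (reads relative to the length of the gene model and the scaled size of the library), given as mean ± SD. The reads behind them could be recovered: libraries held 15307952 to 102619074 reads in the labelling table, except the isolation label with 2321903 to 7742378, and 22704011 to 25045404 in the fixation table. The lowest read count of any member was 18, in an isolation label library, and at least 165 in every other group. Counting error is therefore largest in the isolation label. The authors' library scaling ran from 0.612 in whole muscle to 1.95 in isolated cells, so a direction between those groups rests on that scaling. The satellite cell list (8 markers such as Pax7 and Calcr, none at 0) took 0.419% ± 0.0095 of reads in isolated cells, 0.00911% ± 2.77e-04 in whole muscle, 0.0118% ± 2.12e-04 in the 4 d label and 0.00855% ± 5.51e-04 after 6 h of labelling. The list of 12 muscle fibre markers (Acta1, Ckm and others) took 15.2% ± 0.181 in whole muscle, 17.8% ± 0.263 in the 4 d label, 10.1% ± 0.0792 in the 6 h label, 4.69% ± 2.81 in the isolation label, 1.9% ± 0.754 with alpha-amanitin and 0.0322% ± 0.0060 with DMSO. The pull-downs from muscle thus held fibre transcripts and few satellite cell transcripts, although their label is muscle stem cells. In bulk RNA, fewer cells of a type and less RNA per cell cannot be told apart.

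Together the 39 genes took a larger share of reads in purified stem cells than in whole muscle, but on the authors' scaled levels the sums of these groups were close. Their reads made up 0.391% ± 0.00516 of the library in isolated cells (SD, n = 4), against 0.121% ± 0.00148 in whole muscle. The share was 0.364% ± 0.0227 with DMSO and 0.309% ± 0.0433 with alpha-amanitin, 0.188% ± 0.0202 in the isolation label, and 0.114% ± 0.00509, 0.105% ± 0.00177 and 0.0923% ± 0.0012 in the 6 h, 1 d and 4 d labels. In each library of the 3 in vivo labels the share was below that of the isolation label libraries. Summed over the members, RPKM was 652 ± 11 in isolated cells, 675 ± 20.2 in whole muscle, 783 ± 141 with DMSO, 1014 ± 151 with alpha-amanitin, 644 ± 50.03 in the isolation label, and 491 ± 9.62, 509 ± 14.7 and 473 ± 12.6 in the 6 h, 1 d and 4 d labels. The order of isolated cells and whole muscle, and of alpha-amanitin and DMSO, thus depended on whether shares of reads or scaled levels were used. In the fixation table, which was scaled apart, fixed libraries held 0.346%, 0.411%, 0.374% and 0.396% and unfixed libraries 0.558%, 0.361% and 0.34%, with summed RPKM of 1377 ± 140.4 and 1527 ± 402. By share of reads the first unfixed library stood above every other library of the study.

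**Figure D1:**
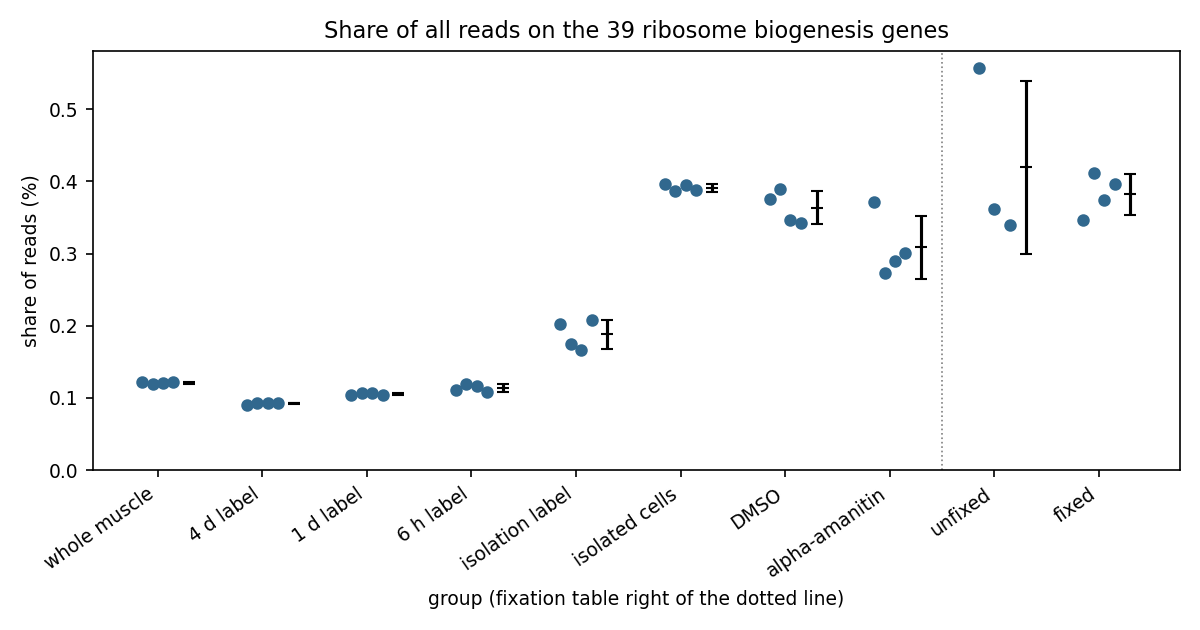
Share of all reads (vertical axis, percent) that fell on the 39 ribosome biogenesis genes, by group (horizontal axis). Points are libraries and bars the mean and SD over the libraries of a group. The purified stem cell groups lie above whole muscle and the in vivo labels, and unfixed replicate 1 lies at 0.558%. Shares do not use the authors' library scaling, under which isolated cells and whole muscle summed to 652 and 675 RPKM.

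Within a group the genes spanned more than an order of magnitude of RPKM. In isolated cells the lowest member was Rrp1b, 2.68 ± 0.15 RPKM (SD, n = 4), a nucleolar factor of the large subunit, and the highest Nop58, 133 ± 2.79 RPKM (SD, n = 4), a core protein of the box C/D snoRNP. The median member stood at 10.4 RPKM in isolated cells, 14.3 in whole muscle and 9.98 in the 6 h label. In whole muscle the highest member was Nhp2, 52.1 ± 2.41 RPKM (SD, n = 4), a core protein of the box H/ACA snoRNP, and the lowest Utp20, 0.842 ± 0.0656 RPKM (SD, n = 4), a large scaffold of the small-subunit processome. Nhp2 led the isolation label, 70.5 ± 15.5 RPKM (SD, n = 4). In the 4 d, 1 d and 6 h labels the highest member was Imp3, a processome protein that binds the snoRNA of early cleavage, with 52 ± 2.15 RPKM (SD, n = 4), 40.1 ± 0.847 RPKM (SD, n = 4) and 46.3 ± 0.844 RPKM (SD, n = 4). Replicate spread was small in isolated cells, with a median coefficient of variation over the 39 genes of 4.70%, and larger in the isolation label, 23.9%, and the unfixed cells, 30.4%.

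**Figure D2:**
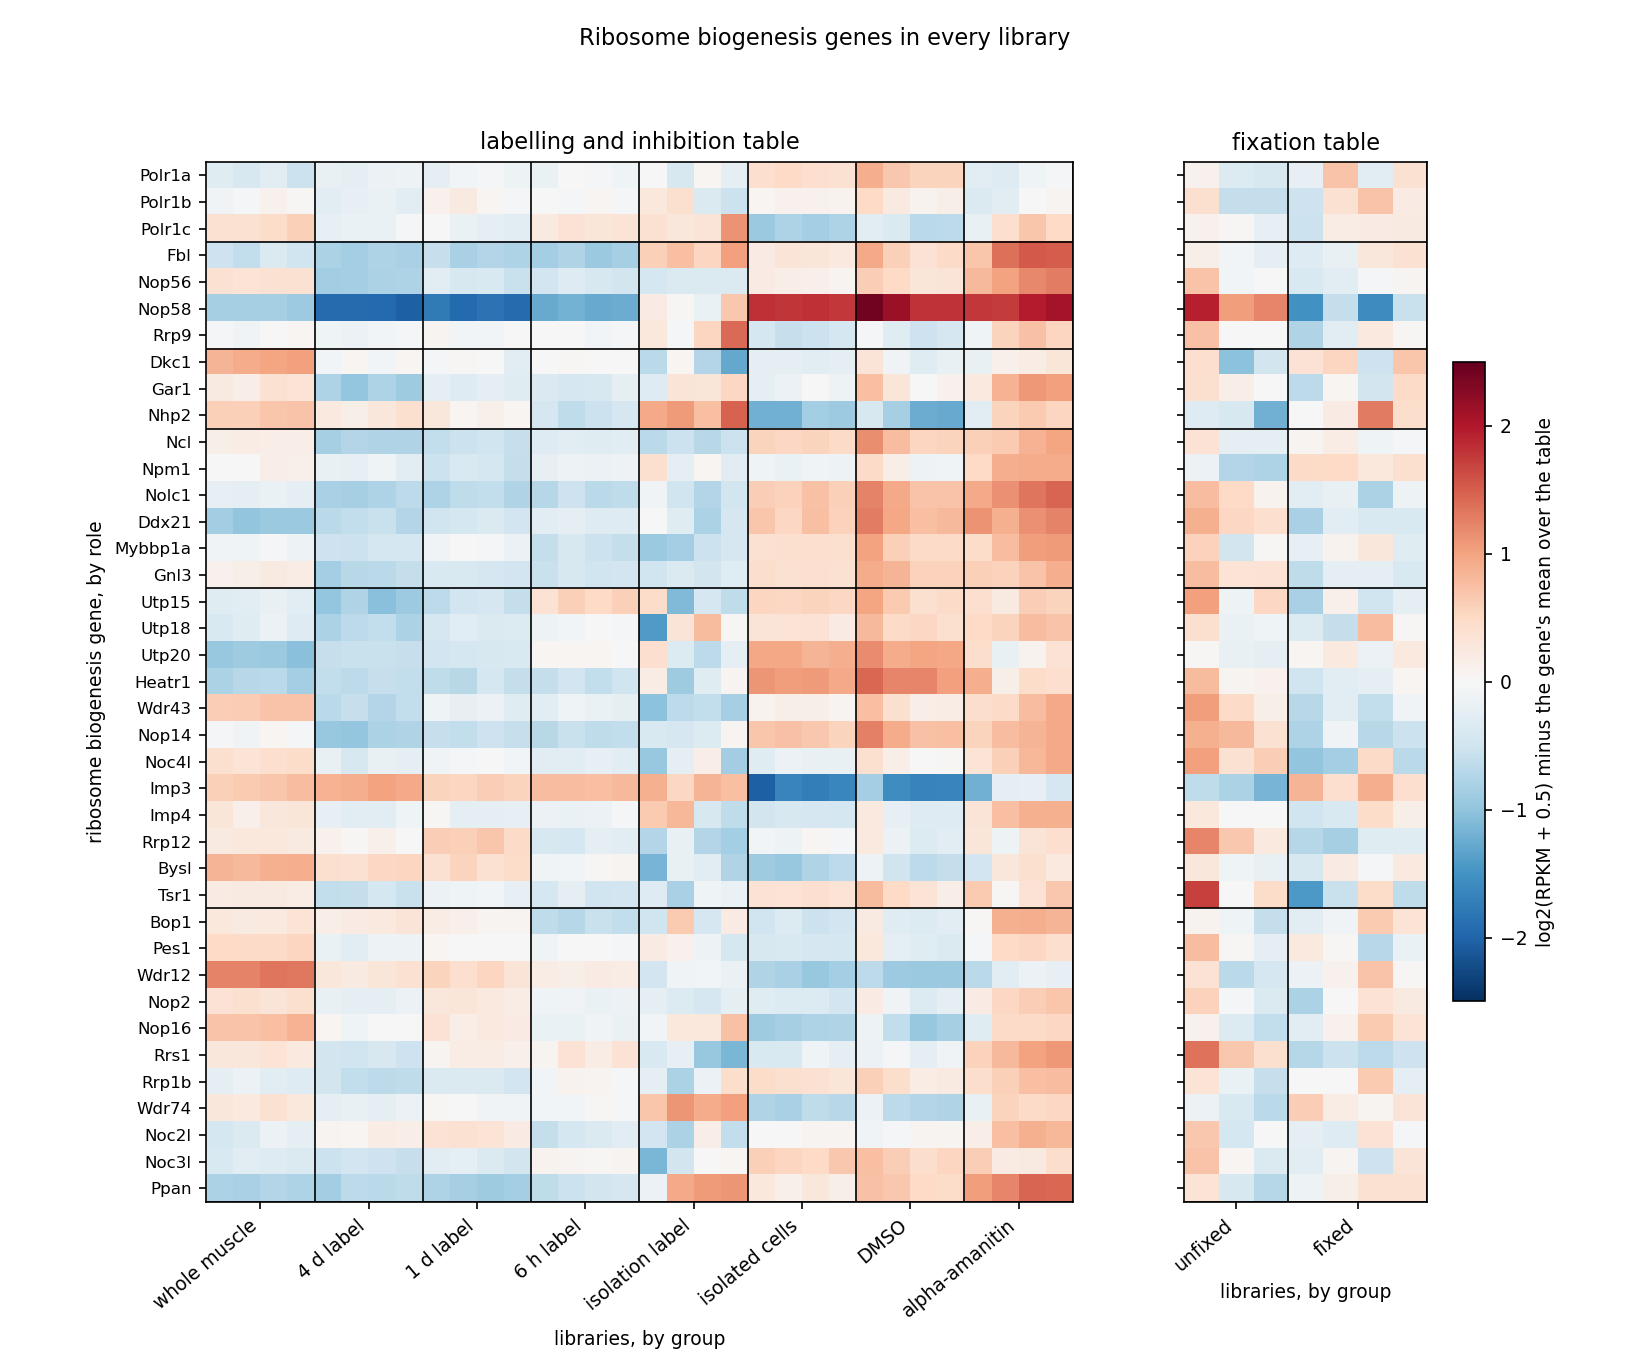
Each row is a ribosome biogenesis gene, by role from the RNA polymerase I core at the top to the large subunit at the bottom, and each column a library. Colour gives log2(RPKM + 0.5) minus the gene's mean over the libraries of its table. Nop58 runs from low in the 3 in vivo labels to high in stem cells with and without alpha-amanitin, and Imp3 is low in isolated cells and DMSO cells.

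The genes differed in the regions ahead of their start sites. RefSeq windows (build GRCm38.p6, the mm10 assembly) matched 34 of the 39 symbols; Fbl, Npm1, Rrp12, Bop1 and Rrs1 had no entry. Within the 250 bases before the start, the E-box CACGTG, a palindrome that Myc and its partner Max can bind, was found in Utp18, Imp4 and Nop2, which is 3 of 34 (8.82%) against 6.86% of 27025 genes. The ETS core CGGAAG, on either strand, was found in 15 of 34 (44.1%) against 15.3% of genes. The GC box GGGCGG stood in 22 of 34 (64.7%) against 35.4%, and CCAAT in 10 of 34 (29.4%) against 37.5%. A match describes letters only. The 27025 genes are all symbols with a window, expressed in these libraries or not, so they are not a like set to the members. The windows of 4 genes follow, because the ratio of Nop58 to its partner Nop56 varied between groups, Imp3 had differences of the opposite sign to Nop58 in each of the 7 comparisons, not all of them called, and Nop2 holds an E-box. Each is written in the direction of its gene, with CACGTG and CGGAAG on either strand in capitals, and lies at chr1:59684756-59685005 for Nop58, chr2:130274162-130274411 for Nop56, chr9:56937250-56937499 for Imp3 and chr6:125131633-125131882 for Nop2, all on the plus strand.
Nop58: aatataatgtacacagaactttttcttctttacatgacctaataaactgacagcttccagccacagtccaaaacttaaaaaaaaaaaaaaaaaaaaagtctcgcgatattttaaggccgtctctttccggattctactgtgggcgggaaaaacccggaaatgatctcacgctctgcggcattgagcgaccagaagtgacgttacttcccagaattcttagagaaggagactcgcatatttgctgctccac
Nop56: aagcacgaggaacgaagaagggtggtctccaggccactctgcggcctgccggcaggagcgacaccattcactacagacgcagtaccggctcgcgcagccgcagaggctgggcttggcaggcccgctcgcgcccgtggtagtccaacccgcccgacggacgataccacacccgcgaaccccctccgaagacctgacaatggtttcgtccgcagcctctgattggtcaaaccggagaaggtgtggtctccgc
Imp3: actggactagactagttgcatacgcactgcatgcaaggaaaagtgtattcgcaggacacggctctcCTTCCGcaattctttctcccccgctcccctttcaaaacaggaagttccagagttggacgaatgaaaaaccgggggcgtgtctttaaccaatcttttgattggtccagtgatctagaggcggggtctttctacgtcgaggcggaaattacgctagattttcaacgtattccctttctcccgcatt
Nop2: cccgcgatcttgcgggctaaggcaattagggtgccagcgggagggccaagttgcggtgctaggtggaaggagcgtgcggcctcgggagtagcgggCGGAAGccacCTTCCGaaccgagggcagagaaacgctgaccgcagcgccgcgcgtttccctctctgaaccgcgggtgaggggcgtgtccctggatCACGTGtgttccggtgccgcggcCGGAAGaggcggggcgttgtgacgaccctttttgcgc

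Isolated stem cells were first compared with whole muscle, both as total RNA. Among the 39 genes, 18 were higher in isolated cells and 20 lower, with Polr1b alone not called, a limma test on log2(RPKM + 0.5) with Benjamini-Hochberg adjustment over all genes. Of all 14813 genes tested, 48.8% were higher and 46.5% lower, so the members' counts, 46.2% and 51.3%, lay near the background. Their median log2 difference was -0.19 against 0.06 over all genes, with higher genes at 0.15 to 2.65 and lower genes at -2.45 to -0.19. The split depended on the scaling. With library sizes from all reads, which moved the median of all genes to 1.44, 34 members were higher and 3 lower.

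By role, the 3 box H/ACA genes were lower, 5 of 6 nucleolar factors were higher, and of the 12 small-subunit factors 6 were higher and 6 lower. The box H/ACA direction rested on the scaling: with library sizes from all reads Dkc1 and Gar1 turned (0.36 and 1.14) and Nhp2 was not called. Nop58 (chr1:59685006-59711510, plus strand) was at 135, 131, 134 and 129.5 RPKM in isolated cells and 21, 20.9, 21 and 19.99 in whole muscle. The groups lay far apart, 6.27-fold higher in isolated cells (log2 difference 2.65 ± 0.033 (SE), adjusted p = 3.6e-15). The helicase Ddx21 stood at 17, 14.9, 17.6 and 15.5 RPKM against 5.41, 4.93, 5.13 and 5.15 (log2 difference 1.56 ± 0.055 (SE), adjusted p = 3.28e-11). Heatr1, which joins early processome assembly to RNA polymerase I transcription, was at 7.85, 7.51, 7.63 and 6.99 against 1.77, 1.93, 1.94 and 1.68 RPKM (log2 difference 1.78 ± 0.055 (SE), adjusted p = 9.73e-12). All 3 genes stayed higher with library sizes from all reads.

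Imp3 (chr9:56937500-56938397, a gene of 1 exon) was at 6.16, 8.2, 7.72 and 8.37 RPKM in isolated cells against 40.6, 42.8, 44 and 46.6 in whole muscle. It was 5.45-fold lower in the cells (log2 difference -2.45 ± 0.082 (SE), adjusted p = 1.95e-11). Wdr12, a subunit of the complex with Pes1 and Bop1 that the large subunit needs, was at 3.9, 3.72, 3.36 and 3.6 against 16.9, 16.9, 18.1 and 18 RPKM (log2 difference -2.12 ± 0.048 (SE), adjusted p = 6.34e-13). Nhp2 was at 14.1, 14, 18.2 and 17.4 against 50.1, 49.9, 53.5 and 54.7 RPKM (log2 difference -1.69 ± 0.08 (SE), adjusted p = 5.9e-10), a call lost once all reads set the library sizes (adjusted p = 0.248). Wdr12 overlaps Carf and Nhp2 overlaps Rmnd5b on the opposite strand, and no source used here says whether the counting used strand. In all, 15 members share exon positions with a gene on the other strand.

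The other genes of the pathway were counted on the same scale. Of 62 further ribosome assembly genes tested, 16 were higher and 41 lower. Of 11 further RNA polymerase I genes 2 were higher and 8 lower. Over all genes the shares were 48.8% and 46.5%. By share of reads, which does not use the authors' scaling, both lists were higher in isolated cells. Assembly genes took 0.354% ± 0.00544 against 0.205% ± 0.00175, and polymerase I genes 0.0437% ± 5.22e-04 against 0.0233% ± 2.17e-04. The direction of both lists thus rests on the scaling, and other library sizes were not examined for their genes. The assembly genes with the smallest adjusted p were Nop10, a box H/ACA protein, at 15.6 ± 0.374 against 109.9 ± 2.84 RPKM, 6.87-fold lower, adjusted p = 2.91e-15, and Pno1, a small-subunit maturation factor, at 7.7 ± 0.584 against 111 ± 3.5 RPKM, 13.6-fold lower, adjusted p = 5.39e-15. The polymerase I initiation factor Rrn3 was at 15 ± 0.721 against 25.8 ± 0.486 RPKM, 1.7-fold lower, adjusted p = 1.52e-09, and the nucleolar DNA-binding factor Ubtf at 7.65 ± 0.321 against 8.97 ± 0.343 RPKM, 1.16-fold lower, adjusted p = 4.72e-04. Of the polymerase I genes Polr1d, a subunit shared with polymerase III, had the smallest adjusted p, at 11.9 ± 0.183 against 45.1 ± 0.94 RPKM, 3.68-fold lower, adjusted p = 4.51e-14, followed by Znrd1, a small subunit of polymerase I, at 11.4 ± 0.777 against 26.8 ± 0.875 RPKM, 2.29-fold lower, adjusted p = 1.15e-10. Myc was at 154 ± 6.67 against 5.29 ± 0.261 RPKM, 26.6-fold higher, adjusted p = 4.57e-16, and within the Myc network of 9 tested genes 5 were higher and 3 lower.

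The partners Nop56 and Nop58, which sit side by side in the box C/D snoRNP, were not kept in proportion. Their ratio within a library does not depend on library scaling. Nop58 over Nop56 was 5.97 ± 0.177 in isolated cells and 5.76 ± 0.573 with DMSO, 3.29 ± 0.223 with alpha-amanitin and 2.88 ± 0.77 in RNA tagged during isolation. It was 0.795 ± 0.0241 in whole muscle and 1.06 ± 0.031, 0.665 ± 0.0341 and 0.844 ± 0.0628 in the 6 h, 1 d and 4 d labels. In the fixation table it was 4.47 ± 0.23 in unfixed and 1.09 ± 0.402 in fixed cells. Neither group's libraries overlapped the other's. The ratio was chosen after its values were seen and was not tested. Nop56 shares exon positions with Idh3b on the other strand.

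Other partners shifted too, as ratios likewise chosen after their values were seen. Wdr12 over Pes1 was 0.773 ± 0.0287 in whole muscle and 0.308 ± 0.0163 in isolated cells. Polr1c, a subunit that RNA polymerases I and III share, over Polr1a, the largest subunit of polymerase I, was 5.17 ± 0.849 in whole muscle, 1.07 ± 0.0665 in isolated cells, 1.14 ± 0.0688 with DMSO and 4.15 ± 0.888 with alpha-amanitin. Gar1 over Dkc1, the pseudouridine synthase, ran from 0.494 ± 0.056 in the 4 d label to 1.94 ± 1.1 in the isolation label.

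RNA tagged during isolation was next compared with the total RNA of isolated cells, to ask which transcripts the cells made while they were being purified. In tagged RNA 8 of 39 genes were higher and 16 lower, against a background of 29.8% higher and 29.7% lower among 14863 genes. The median log2 difference was -0.40 for the members and -0.07 for all genes, and called members ran from -1.62 to -0.53 and from 0.47 to 2.52. With library sizes from all reads, which moved the median of all genes to -0.64, 5 were higher and 25 lower. Of the 6 nucleolar factors 5 were lower and none higher. Of the 12 small-subunit factors 7 were lower and 1 higher, and of the 11 large-subunit factors 1 was lower and 3 higher.

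Nop58 was at 43.4, 38.3, 33.5 and 60.5 RPKM in the 4 isolation label libraries, each below the isolated cells at 129.5 to 135 (log2 difference -1.62 ± 0.17 (SE), adjusted p = 3.54e-05). Ncl (nucleolin, an abundant organiser of the nucleolus) was at 17.1, 18.8, 16.8 and 18.8 RPKM in tagged and 40.6, 39.6, 40.9 and 38.7 in total RNA (log2 difference -1.14 ± 0.095 (SE), adjusted p = 9.15e-06). Heatr1 was at 3.95, 1.6, 2.65 and 3.58 against 7.85, 7.51, 7.63 and 6.99 RPKM (log2 difference -1.27 ± 0.24 (SE), adjusted p = 0.00133). None of these groups overlapped.

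Imp3 was at 50.001, 38.9, 48.8 and 45.8 RPKM in tagged RNA against 6.16, 8.2, 7.72 and 8.37 in total RNA, 5.73-fold higher (log2 difference 2.52 ± 0.14 (SE), adjusted p = 6.27e-07). Nhp2 was at 64.2, 69.4, 56.3 and 92.3 against 14.1, 14, 18.2 and 17.4 RPKM (log2 difference 2.10 ± 0.17 (SE), adjusted p = 6.8e-06). Wdr74, a factor of early large-subunit particles, was at 38.5, 51.3, 45.4 and 48.4 against 13.8, 13.4, 15 and 14.5 RPKM (log2 difference 1.65 ± 0.12 (SE), adjusted p = 3.36e-06). All 3 were lower in isolated cells than in whole muscle, a comparison with the same isolated cell libraries. Muscle fibre markers moved with this comparison, at 2.2%, 6.88%, 7.35% and 2.31% of reads in the 4 tagged libraries against 0.0369% to 0.109% in isolated cells, and their part in the result was not tested. Higher in tagged RNA were 8 of 8 macrophage, 5 of 8 endothelial, 7 of 8 fibro-adipogenic and 5 of 5 erythroid markers. Macrophage markers stood at 0.106% ± 0.00278 against 0.0198% ± 6.55e-04 of reads. Of 8 satellite cell markers 7 were lower and none higher, with a median log2 difference of -1.04. They took 0.143% ± 0.0423 of reads in tagged RNA and 0.419% ± 0.0095 in isolated cells. The part of these lists was not tested either. Calls held with any library left out for 23 of the 24 called members, the exception being Rrp12. Fbl, the methyltransferase of the box C/D snoRNP, was at 50.2, 55.6, 48.2 and 67.1 against 37.9, 41.1, 40.5 and 38.7 RPKM (log2 difference 0.47 ± 0.12 (SE), adjusted p = 0.00796), and its sign turned with library sizes from all reads (-0.23).

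Gene length moved with the difference. Across the 39 members Spearman's rho between gene model length, 898 to 8831 bases, and the log2 difference was -0.62 in this comparison, against -0.33 over all 14863 genes. The 8 members of 2000 bases or less had a median of 0.79, with 5 higher and 2 lower, and the 13 of 4000 bases or more had a median of -0.59, with 1 higher and 9 lower. The corresponding rho of members, with that of all genes in brackets, was -0.68 (-0.20) for alpha-amanitin against DMSO. It was 0.59 (0.19) for the 6 h against the isolation label and 0.41 (0.13) for isolated cells against whole muscle. It was 0.18 (0.31) for the 6 h against the 4 d label and 0.16 (0.02) for the 4 d label against whole muscle. For fixed against unfixed cells it was -0.09 (-0.12). Genes are not independent replicates, RPKM itself contains length, and these values are descriptions. Short members include Imp3, Nhp2, Wdr74 and Nop58, and long members include 3 of the nucleolar factors, and the part of length in the result was not tested.

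**Figure D3:**
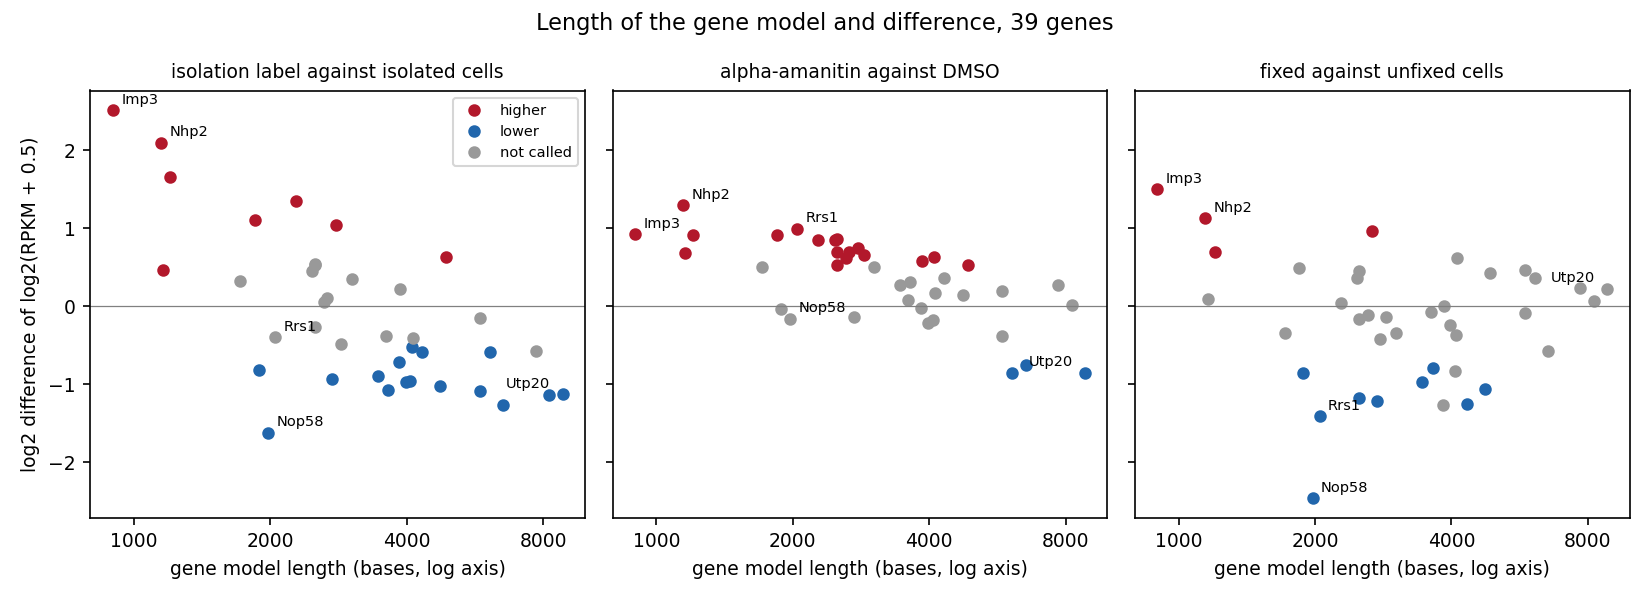
Gene model length (horizontal log axis, bases) against the log2 difference of log2(RPKM + 0.5) (vertical axis) for the 39 genes in 3 comparisons. Red points were called higher, blue lower and grey were not called; the points fall from left to right in the first 2 panels (rho -0.62 and -0.68) and do not in the third (-0.09).

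In the annotation 8 of the members carry a snoRNA within the gene: Dkc1, Gnl3, Ncl, Nop56, Nop58, Ppan, Tsr1 and Wdr43. In the isolation label against isolated cells none of these 8 was higher and 6 were lower, while of the other 31 members 8 were higher and 10 lower. In isolated cells against whole muscle 5 of the 8 were higher and 3 lower, against 13 and 17 of the 31. With alpha-amanitin 2 of the 8 were higher and none lower, against 16 and 3, and in fixed cells none was higher and 3 lower, against 4 and 6. In the 6 h against the 4 d label 6 were higher and none lower, against 14 and 8, and in the 6 h against the isolation label 3 were higher and 2 lower, against 4 and 5. In the 4 d label against whole muscle none was higher and 7 lower, against 6 and 23. This grouping was chosen after the values were seen and carries no test. Of all genes tested, 29.8% were higher and 29.7% lower in the isolation label against isolated cells. In the order given above, the other shares were 48.8% and 46.5%, 33.9% and 10.3%, and 12.2% and 10.8%. For the last 3 comparisons they were 52.7% and 36.1%, 38.5% and 24.4%, and 28.1% and 56.4%.

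Among other genes of the pathway, 16 of 62 assembly genes were higher in tagged RNA (25.8%) and 21 lower (33.9%), near the background of 29.8% and 29.7%, with Nop10 at 98.1 ± 8.57 against 15.6 ± 0.374 RPKM, 6.12-fold higher, adjusted p = 1.47e-07 and Emg1, a methyltransferase of the small subunit, at 79 ± 7.79 against 18.6 ± 0.635 RPKM, 4.14-fold higher, adjusted p = 4.28e-07. Of 11 polymerase I genes 2 were higher, Polr1d at 92.2 ± 2.79 against 11.9 ± 0.183 RPKM, 7.49-fold higher, adjusted p = 6.18e-08 and Znrd1 at 50.03 ± 11.6 against 11.4 ± 0.777 RPKM, 4.15-fold higher, adjusted p = 1.23e-05, and 3 lower, among them Rrn3 at 10.2 ± 2.0 against 15 ± 0.721 RPKM, 1.46-fold lower, adjusted p = 0.0123 and Ubtf at 5.16 ± 1.18 against 7.65 ± 0.321 RPKM, 1.46-fold lower, adjusted p = 0.0178. In the Myc network 3 of 10 were higher and 4 lower. Myc itself was at 101 ± 29.8 against 154 ± 6.67 RPKM, 1.56-fold lower, adjusted p = 0.0171.

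Alpha-amanitin, which binds RNA polymerase II and leaves polymerase I largely active, was used to ask how transcription during isolation changes total RNA. With the inhibitor 18 of 39 genes were higher and 3 lower than with DMSO, against 33.9% and 10.3% of 13710 genes. The members' median log2 difference was 0.51 and that of all genes 0.28, and higher genes ran from 0.53 to 1.30. The direction rests on the scaling: with library sizes from all reads 10 were higher and 13 lower (median of all genes -0.18), and with sizes from mitochondrially encoded genes, which polymerase II does not transcribe, none was higher and 37 were lower (median of all genes -1.06). Without any 1 of the alpha-amanitin libraries 2, 3 or 4 or the DMSO libraries 2, 3 or 4 only 6 or 7 were called higher. In order of replicates, the authors' scaling was 1.54, 0.980, 0.920 and 0.917 with alpha-amanitin and 1.25, 1.60, 1.66 and 1.62 with DMSO. Muscle fibre markers stood at 0.811%, 2.05%, 2.19% and 2.54% in the 4 alpha-amanitin libraries and 0.0279% to 0.0411% with DMSO. Macrophage markers, 6 of 8 called higher, stood at 0.0594% ± 0.0143 and 0.0369% ± 0.00436. Erythroid markers, 5 of 5 higher, stood at 0.0234% ± 0.00719 and 0.0104% ± 0.00136, and fibro-adipogenic markers, 5 of 8 higher, at 1.18% ± 0.0114 and 0.927% ± 0.0703. Satellite cell markers took 0.30% ± 0.00365 with alpha-amanitin and 0.414% ± 0.0123 with DMSO. The part of these in the result was not tested.

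The 3 lower genes were long and encode the polymerase and the processome. Polr1a was at 3.31, 3.13, 3.73 and 3.88 RPKM with alpha-amanitin and 8.06, 6.78, 6.14 and 6.17 with DMSO (log2 difference -0.86 ± 0.14 (SE), adjusted p = 0.00328). Heatr1 was at 6.83, 3.82, 4.86 and 4.71 against 10.02, 8.63, 8.62 and 7.49 RPKM (log2 difference -0.75 ± 0.18 (SE), adjusted p = 0.0114), and Utp20 was at 2.46 ± 0.565 against 4.76 ± 0.418 RPKM (log2 difference -0.85 ± 0.16 (SE), adjusted p = 0.00551). The libraries of the groups did not overlap for any of them. In 4 of the 39 members (10.3%) each alpha-amanitin library lay below each DMSO library, against 9.88% of all 13710 genes tested. All 3 remained lower when any library was left out and with library sizes from all reads or median-of-ratios factors.

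Nhp2 was at 27.3, 49.1, 52 and 47.9 RPKM with alpha-amanitin and 25, 18.4, 13.7 and 13.5 with DMSO (log2 difference 1.30 ± 0.27 (SE), adjusted p = 0.00762). Rrs1, a large-subunit factor, was at 27, 32.1, 36.5 and 38.9 against 16.1, 17.7, 15.2 and 16.9 RPKM (log2 difference 1.00 ± 0.17 (SE), adjusted p = 0.00405), with no overlap. Imp3 was at 11.5, 22.9, 23.4 and 19.98 against 14.7, 8.81, 8.07 and 8.19 RPKM (log2 difference 0.93 ± 0.27 (SE), adjusted p = 0.0222). Its first alpha-amanitin library fell inside the DMSO range, and leaving out any 1 of 6 libraries (2, 3 or 4 of either group) raised its adjusted p above 0.05, to at most 0.0743. Of the 18 higher genes, 8 had no library within or below the DMSO range, which is 20.5% of the 39 members, while 17.9% of all genes tested had all alpha-amanitin libraries above all DMSO libraries. Large-subunit factors gave 8 of the 18 and no lower gene, and 3 of 4 box C/D genes were higher. Calls held in every fit with a library left out for 9 of the 21 called genes: Polr1a, Polr1c, Nhp2, Utp20, Heatr1, Imp4, Rrs1, Wdr74 and Ppan.

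The nucleolar proteins Ncl and Gnl3 did not pass the test. Ncl was at 42, 43.6, 50.49 and 54.9 RPKM with alpha-amanitin and 62.6, 47.6, 40.1 and 40.6 with DMSO (log2 difference 0.016 ± 0.20 (SE), adjusted p = 0.95). Gnl3 (nucleostemin, a nucleolar GTPase of proliferating and stem cells) was at 45.7, 44.9, 49.4 and 56.9 against 57.2, 54.6, 45 and 44.9 (log2 difference -0.032 ± 0.18 (SE), adjusted p = 0.883). The ranges overlapped for both. Npm1 (nucleophosmin) was at 62.2, 83.3, 83.7 and 83.6 against 61.7, 49.4, 40.02 and 41.6 RPKM and was called (log2 difference 0.70 ± 0.21 (SE), adjusted p = 0.0225), with adjusted p up to 0.0806 when a library was left out. Nop58 was at 129, 127, 148 and 161 against 202, 170.2, 133 and 133 RPKM (log2 difference -0.16 ± 0.20 (SE), adjusted p = 0.52), while Nop56 was at 35.7, 40.6, 46.9 and 49.1 against 31.1, 28.6, 25 and 25.1 (log2 difference 0.64 ± 0.18 (SE), adjusted p = 0.0188; up to 0.0691 with a library left out). Once all reads set the library sizes, neither Npm1 nor Nop56 was called (adjusted p = 0.117 and 0.304).

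Among the other pathway genes 23 of 62 assembly genes were higher and 3 lower, with Pno1 at 20.7 ± 4.67 against 9.61 ± 2.44 RPKM, 2.09-fold higher, adjusted p = 0.00838 and Lyar, a nucleolar zinc finger protein, at 19.4 ± 4.4 against 9.6 ± 2.17 RPKM, 1.96-fold higher, adjusted p = 0.010. Of all genes tested, 33.9% were higher and 10.3% lower, against 37.1% and 4.84% of the 62 assembly genes. By share of reads, assembly genes took 0.301% ± 0.0293 with alpha-amanitin and 0.327% ± 0.0149 with DMSO. The Myc network took 0.167% ± 0.0140 and 0.162% ± 0.0104. Directions in these lists thus rest on the scaling, and other library sizes were not examined for their genes. Of 11 polymerase I genes 3 were higher and 1 lower. Polr1d was at 31.6 ± 7.88 against 15 ± 3.48 RPKM, 2.05-fold higher, adjusted p = 0.0107. Rrn3 was at 16.4 against 18.9 RPKM and Ubtf at 13.4 against 9.89 RPKM, neither called (adjusted p = 0.338 and 0.174). Myc was at 487 ± 82.7 against 303 ± 67.7 RPKM, 1.62-fold higher, adjusted p = 0.0298, and 5 of 10 Myc network genes were higher and 1 lower.

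Stem cells fixed in the animal before sorting were compared with unfixed sorted cells, to see the transcriptome before isolation acts on it. In fixed cells 9 of 39 genes were lower and 4 higher, against a background of 10.8% lower and 12.2% higher among 12816 genes. Lower calls were thus 23.1% of members and higher calls 10.3%. The median log2 difference was -0.11 for members and 0.07 for all genes, and the 26 genes that were not called ran from -1.26 to 0.62. Unfixed replicate 1 bore on the count: without it 4 members were lower and 2 higher and the median was 0.12. Without unfixed replicate 2, 5 were lower and 2 higher, and without fixed replicate 3 or 5, or unfixed replicate 3, 1 or 2 were higher. By role, the lower genes were 4 small-subunit factors, 3 nucleolar factors, Nop58 and Rrs1, and no RNA polymerase I or box H/ACA gene was lower.

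Nop58 was at 32.2, 61.4, 30.8 and 62.9 RPKM in the fixed libraries (replicates 1, 3, 4 and 5) and 359, 191 and 217 in the unfixed libraries (replicates 1, 2 and 3). Every fixed library lay below every unfixed library, and the mean was 5.51-fold lower (log2 difference -2.46 ± 0.33 (SE), adjusted p = 8.59e-04). Rrs1 was at 13.7, 15.7, 14.4 and 15.9 against 59.1, 36.8 and 30.4 RPKM (log2 difference -1.41 ± 0.25 (SE), adjusted p = 0.00382). Rrp12, an export and maturation factor of the small subunit, was at 4.36, 4.02, 6.02 and 5.96 against 18.1, 12.3 and 9.03 RPKM (log2 difference -1.25 ± 0.31 (SE), adjusted p = 0.0162). Without unfixed replicate 1 or 2 the call on Rrp12 ended, with an adjusted p of up to 0.0809.

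The helicase Ddx21 was at 15.2, 22.3, 20.7 and 20.6 RPKM in fixed and 50.2, 38.7 and 36.1 in unfixed cells (log2 difference -1.06 ± 0.22 (SE), adjusted p = 0.00817), and Nop14, a processome protein, at 15.6 ± 3.65 against 36.4 ± 6.7 RPKM (log2 difference -1.21 ± 0.25 (SE), adjusted p = 0.00679). Gnl3 was at 43.5, 57.5, 57.4 and 51.6 against 116, 85.6 and 86.5 RPKM (log2 difference -0.86 ± 0.20 (SE), adjusted p = 0.0139), a call that ended without unfixed replicate 1 (adjusted p = 0.0638). Noc4l, Wdr43 and Nolc1, a chaperone of snoRNPs, were also called lower, with log2 differences of -1.18, -0.97 and -0.79. Each of these 3 lost its call in 3 to 7 of the 7 fits with a library left out.

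Imp3 was at 69.5, 51.2, 72.3 and 51.3 RPKM in fixed and 24.6, 22 and 17 in unfixed cells, 2.84-fold higher when fixed (log2 difference 1.504 ± 0.23 (SE), adjusted p = 0.00148). Nhp2 was at 84, 97.7, 209 and 116 against 67.5, 64.1 and 36.5 RPKM (log2 difference 1.13 ± 0.34 (SE), adjusted p = 0.039), and the call ended in 5 of 7 fits with a library left out, with adjusted p up to 0.17. Npm1 was at 218, 223, 189 and 208 against 142, 95 and 91.4 RPKM (log2 difference 0.96 ± 0.21 (SE), adjusted p = 0.00912), and only the fit without unfixed replicate 3 ended its call (adjusted p = 0.0578). Wdr74 was at 59.1 ± 10.3 against 36.3 ± 6.52 RPKM (log2 difference 0.69 ± 0.22 (SE), adjusted p = 0.0459) and kept its call in 1 of 7. Calls on Nop58, Rrs1, Ddx21, Nop14 and Imp3 held in all 7.

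**Figure D4:**
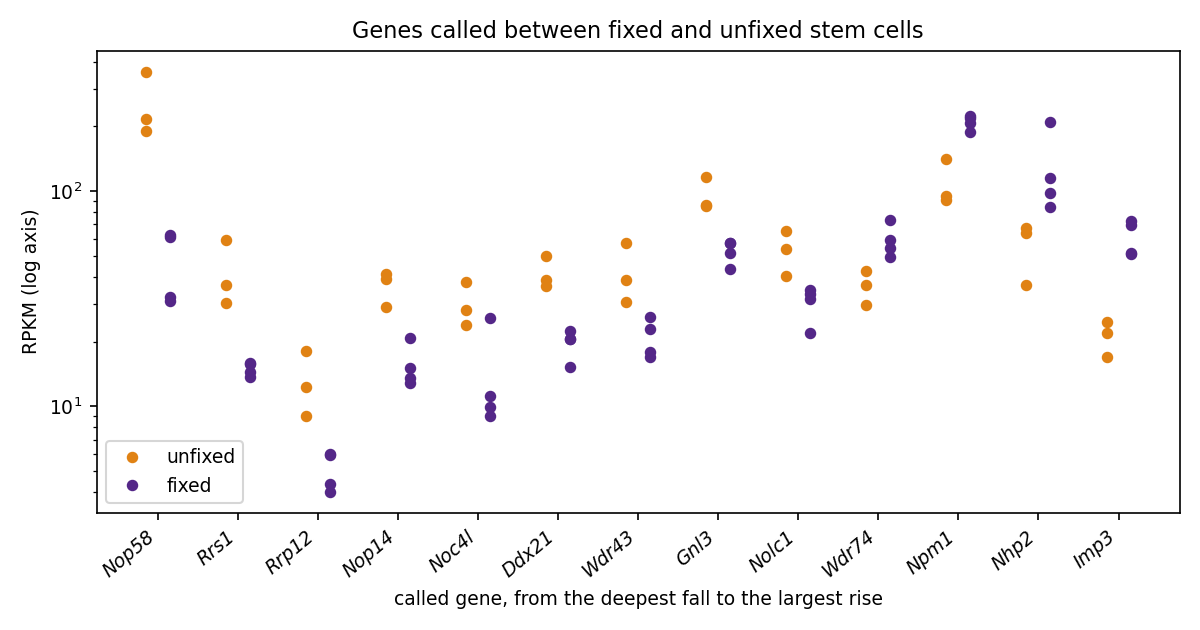
RPKM (vertical log axis) in each unfixed (orange) and fixed (purple) library of the 13 ribosome biogenesis genes called between the groups, ordered along the horizontal axis from the deepest fall to the largest rise. Nop58 shows the widest gap, 30.8 to 62.9 against 191 to 359 RPKM, and in Noc4l 1 fixed library, at 25.7 RPKM, lies inside the unfixed range.

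Most members showed no call. Ncl was at 91.2, 98, 80.2 and 84.7 against 111, 73.3 and 73.1 RPKM (log2 difference 0.07 ± 0.21 (SE), adjusted p = 0.839), and Fbl at 123 ± 28.6 against 113 ± 15.1 (log2 difference 0.097 ± 0.23 (SE), adjusted p = 0.79). Nop56 was at 36.6, 39.2, 46.4 and 49.7 against 78, 45.5 and 47.2 (log2 difference -0.37 ± 0.24 (SE), adjusted p = 0.307), Dkc1 at 27, 30.5, 14.4 and 34.2 against 28, 10.01 and 15.2 (log2 difference 0.62 ± 0.39 (SE), adjusted p = 0.281) and Polr1b at 4.71, 9.19, 11.7 and 8.1 against 9.33, 4.41 and 4.4 RPKM (log2 difference 0.46 ± 0.38 (SE), adjusted p = 0.41). The fixed and unfixed ranges overlapped for all of these. Tsr1 had a mean log2 difference of -1.26 that did not pass the test (adjusted p = 0.102), with unfixed libraries at 27, 7.97 and 11.1 RPKM.

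Markers of other cells moved with fixation. The 8 endothelial markers, none at 0, were all lower in fixed cells, with summed shares of 0.00857%, 0.0145%, 0.00574% and 0.0246% of reads in fixed and 0.0331%, 0.169% and 0.0823% in unfixed libraries. Muscle fibre markers took 0.00915%, 0.0259%, 0.0794% and 0.0733% in fixed and 0.636%, 0.0522% and 0.229% in unfixed libraries, and 4 of 11 tested were lower. Satellite cell markers took 0.215% to 0.42% in fixed and 0.254% to 0.332% in unfixed libraries. Of these 8 markers 3 were lower and 2 higher, with log2 differences from -1.82 to 1.14. Of 8 fibro-adipogenic markers 3 were lower and none higher, at 0.745% ± 0.28 of reads in fixed and 0.955% ± 0.301 in unfixed cells. No macrophage or erythroid marker was called. The part of these in the members' differences was not tested.

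Of the other pathway genes 8 of 62 assembly genes were lower and 2 higher: Emg1 was at 125 ± 13.7 against 49.7 ± 3.97 RPKM, 2.49-fold higher, adjusted p = 9.3e-04, and Nol10, a processome factor, at 9.38 ± 0.567 against 24.2 ± 0.418 RPKM, 2.5-fold lower, adjusted p = 0.00159. Of all genes tested, 10.8% were lower and 12.2% higher, against 12.9% and 3.23% of the 62 assembly genes. Of 11 polymerase I genes 1 was called, Znrd1 at 55.9 ± 13.7 against 29.3 ± 3.96 RPKM, 1.86-fold higher, adjusted p = 0.0206. Rrn3 and Ubtf were not called, at 15.8 against 24.1 RPKM and 24.2 against 17.6 RPKM (adjusted p = 0.166 and 0.173). Myc was at 27.3 ± 5.31 against 524 ± 149 RPKM, 18.6-fold lower, adjusted p = 1.15e-05, and Mxd4, which can take the place of Myc on Max, at 47.3 ± 2.27 against 13.7 ± 5.44 RPKM, 3.54-fold higher, adjusted p = 0.00123. In all 2 of 10 Myc network genes were lower and 2 higher.

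The genes called between fixed and unfixed cells can be set beside the other comparisons, which come from other libraries in the other table. The 4 that were higher in fixed cells, Imp3, Nhp2, Npm1 and Wdr74, were all lower in isolated cells than in whole muscle and all higher with alpha-amanitin, and 3 of them were higher in the isolation label than in isolated cells. Of the 9 lower genes, 5 were higher and 4 lower in isolated cells than in whole muscle, 7 were lower in the isolation label than in isolated cells, none was lower with alpha-amanitin and 2 were higher. Among all genes tested, 48.8% were higher and 46.5% lower in isolated cells than in whole muscle. The shares were 29.8% and 29.7% in the isolation label, and 33.9% and 10.3% with alpha-amanitin. These genes were picked by their fixation calls, and the overlap was not tested. With library sizes from all reads Npm1 and Wdr74 were no longer lower in isolated cells than in whole muscle (1.41 and 0.57) and Nhp2 lost its call (adjusted p = 0.248), so those directions rest on the scaling. With mitochondrial library sizes no member was higher with alpha-amanitin, and the alpha-amanitin calls on Imp3 and Npm1 each ended in 6 of 8 fits with a library left out. Isolated cells against whole muscle and the isolation label against isolated cells share the isolated cell libraries.

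**Figure D5:**
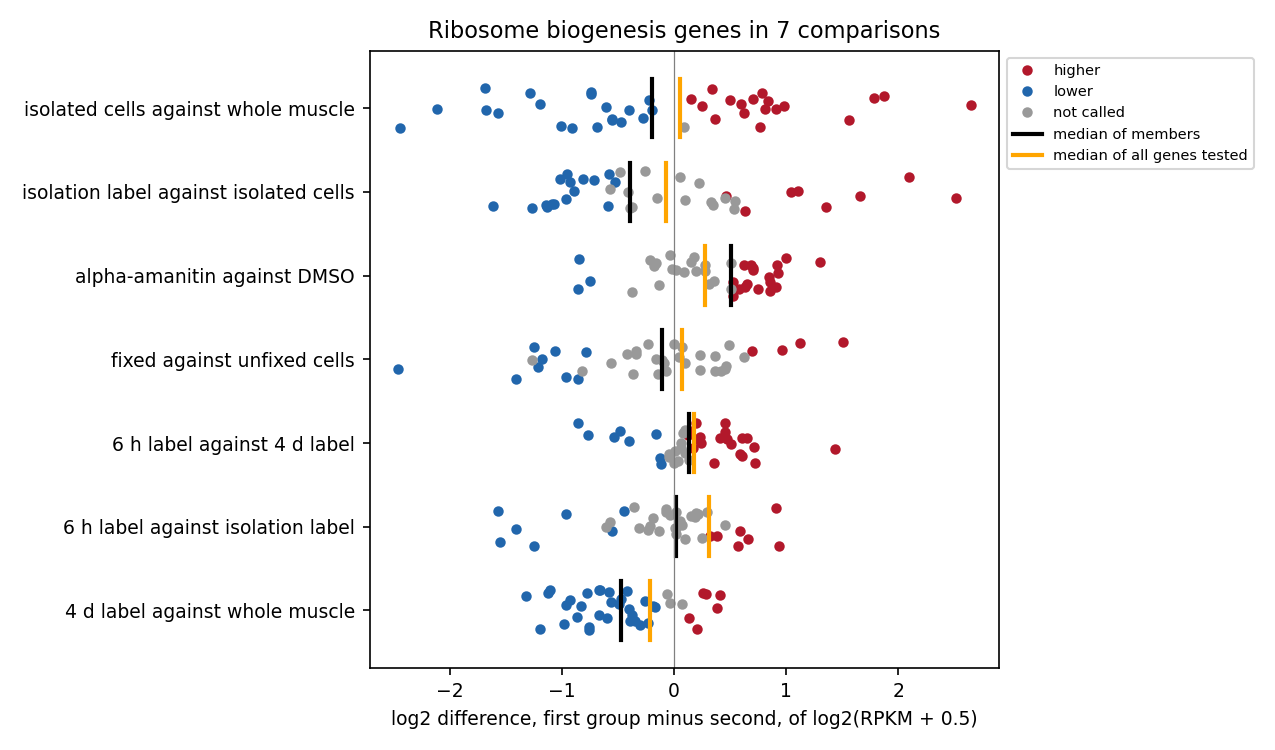
Log2 differences of log2(RPKM + 0.5) (horizontal axis) of the 39 genes in 7 comparisons (vertical axis), first group minus second. Red and blue points were called higher and lower, grey points were not called, and bars give the median of the members (black) and of all genes tested (orange). The members' median lies at -0.47 for the 4 d label against whole muscle and at 0.51 for alpha-amanitin against DMSO.

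RNA tagged in the animal was compared first between the shortest and the longest labelling. In the 6 h label 20 of 39 genes were higher and 8 lower than in the 4 d label, against 52.7% and 36.1% of 11975 genes, with median log2 differences of 0.13 for members and 0.18 for all. Higher calls lay near the background and lower calls, 20.5%, below it. With library sizes from all reads, which moved the median of all genes to 0.32, 30 members were higher and 5 lower. The differences were small: 1 gene of 39 differed by more than 2-fold.

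That gene was Utp15, a processome subunit that binds to transcribing ribosomal DNA, at 5.87, 6.98, 6.54 and 6.93 RPKM in the 6 h label and 2.04, 2.43, 1.89 and 2.13 in the 4 d label (log2 difference 1.43 ± 0.07 (SE), adjusted p = 1.28e-09). Nop58 was at 15.5, 16.4, 15.5 and 15.6 against 9.62, 9.63, 9.48 and 8.75 RPKM (log2 difference 0.72 ± 0.041 (SE), adjusted p = 4.81e-09) and Rrs1 at 18.8, 23.1, 20.6 and 23.4 against 12.9, 12.5, 13.5 and 12.4 RPKM (log2 difference 0.72 ± 0.063 (SE), adjusted p = 3.01e-07). Ncl was also higher, at 22.1, 22.8, 22.1 and 22.7 against 15.3, 16.3, 16.2 and 16.1 RPKM (log2 difference 0.48 ± 0.034 (SE), adjusted p = 4.4e-08). The libraries of the groups did not overlap for these 4 genes.

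Bop1, the partner of Pes1 and Wdr12, was at 11.3, 10.5, 11.9 and 11.4 RPKM in the 6 h and 19.8, 20.4, 20.9 and 22.2 in the 4 d label (log2 difference -0.86 ± 0.047 (SE), adjusted p = 3.44e-09). Nhp2 was at 24.6, 21.1, 22.7 and 24.7 against 39.3, 36.7, 40.1 and 43.8 RPKM (log2 difference -0.77 ± 0.061 (SE), adjusted p = 1.05e-07). Noc2l, which shuttles large-subunit precursors and is also known as a repressor of transcription, was at 7.83, 8.78, 9.38 and 10.1 against 12.7, 12.6, 13.9 and 13.6 RPKM (log2 difference -0.53 ± 0.066 (SE), adjusted p = 7.46e-06). Bop1 overlaps Mroh1 and Noc2l overlaps Samd11 on the other strand. Over Pes1, Bop1 was 0.733 ± 0.0424 in the 6 h and 1.48 ± 0.0723 in the 4 d label, a ratio that scaling does not touch and that was chosen after its values were seen.

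Levels in the 1 d label ran in order of labelling time for some members and not for others. The 1 d mean lay between the 6 h and 4 d means for 17 members (43.6%), above both for 17 and below both for 5 (12.8%), against 51.6%, 24.1% and 24.2% of 12043 genes at 1 RPKM or more in 3 of these libraries. In Mybbp1a, Noc2l, Noc4l, Nop16, Nop2, Pes1, Rrp12 and Tsr1 each 1 d library was above each 6 h and 4 d library, which is 20.5% of members against 11.3% of those genes. The 1 d libraries held Rrp12 at 10.1, 9.99, 10.7 and 9.1 RPKM, the 6 h libraries at 4.72, 4.63, 5.47 and 5.19 and the 4 d libraries at 6.92, 6.56, 7.07 and 6.51. In Npm1 and Imp3, 5.13% of members against 7.27% of genes, each 1 d library was below the others: Npm1 was at 30.1, 33.5, 32.2 and 28.8 RPKM, against 37.9 to 39.999 and 36.7 to 40.9. These are descriptions, since the 1 d group entered no test.

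Of other pathway genes 39 of 61 assembly genes were higher in the 6 h label and 15 lower. These were 63.9% and 24.6%, against 52.7% and 36.1% of all genes tested. Rcl1, a small-subunit processing factor, was at 20.9 ± 0.806 against 6.39 ± 0.468 RPKM, 3.11-fold higher, adjusted p = 3.64e-11 and the large-subunit ATPase Nvl at 6.65 ± 0.432 against 2.65 ± 0.0812 RPKM, 2.27-fold higher, adjusted p = 4.04e-10. Of 11 polymerase I genes 8 were higher and 2 lower. Taf1d was at 25.3 ± 2.01 against 7.8 ± 0.422 RPKM, 3.11-fold higher, adjusted p = 7.83e-11, Rrn3 at 14.3 ± 0.932 against 12.8 ± 0.388 RPKM, 1.11-fold higher, adjusted p = 0.0097 and Ubtf at 6.97 ± 0.351 against 7.8 ± 0.322 RPKM, 1.11-fold lower, adjusted p = 0.00845. Myc was at 8.32 ± 0.381 against 3.29 ± 0.281 RPKM, 2.33-fold higher, adjusted p = 8.51e-10 and Max at 36 ± 2.08 against 10.8 ± 0.458 RPKM, 3.23-fold higher, adjusted p = 1.66e-11. In the Myc network 7 of 8 were higher and 1 lower. Muscle fibre markers were lower in the 6 h label, 12 of 12. So were 5 of 5 erythroid markers, at 0.0332% ± 0.00237 against 0.227% ± 0.0114 of reads. Lower too were 6 of 8 fibro-adipogenic markers, at 0.199% ± 0.00595 against 0.273% ± 0.00701. Of 8 endothelial markers 4 were higher and 1 lower, at 0.171% ± 0.00181 against 0.0876% ± 0.00194. Macrophage markers split, 3 higher and 5 lower of 8, and of 6 satellite cell markers tested 4 were higher and 2 lower. The part of these in the members' differences was not tested.

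The 4 d label was compared with the total RNA of whole muscle. The protocol describes whole muscle as the RNA from which the pull-downs were made, while the labels mark it as without 4tU. Here 30 of 39 genes were lower in the label and 6 higher, against 56.4% lower and 28.1% higher among 11347 genes. The members' median log2 difference was -0.47 and that of all genes -0.21, which library sizes from all reads moved to -0.035. The lower calls were 76.9% of members. All 3 box H/ACA genes, 9 of 12 small-subunit factors and 8 of 11 large-subunit factors were lower.

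Wdr43, a processome protein, was at 12.1, 12.9, 11.5 and 12.6 RPKM in the 4 d label and 30.1, 30.8, 32.2 and 32.5 in whole muscle (log2 difference -1.32 ± 0.043 (SE), adjusted p = 6.5e-11). Nop56 was at 10.7, 10.9, 11.4 and 11.5 against 26.1, 25.6, 26.3 and 26.3 RPKM (log2 difference -1.19 ± 0.036 (SE), adjusted p = 3.79e-11) and Gar1, a box H/ACA protein, at 5.36, 4.64, 5.38 and 4.92 against 11.2, 10.7, 12.6 and 12.1 RPKM (log2 difference -1.13 ± 0.06 (SE), adjusted p = 2.85e-09). Of the higher genes at 5 RPKM or more, Noc2l was at 12.7, 12.6, 13.9 and 13.6 against 8.83, 9.4, 10.9 and 10.2 RPKM (log2 difference 0.41 ± 0.061 (SE), adjusted p = 4.07e-05), Ddx21 at 6.27, 6.55, 6.78 and 5.95 against 5.41, 4.93, 5.13 and 5.15 (log2 difference 0.28 ± 0.048 (SE), adjusted p = 1.17e-04) and Imp3 at 49.9, 50.8, 54.8 and 52.4 against 40.6, 42.8, 44 and 46.6 (log2 difference 0.25 ± 0.045 (SE), adjusted p = 1.89e-04). No libraries overlapped. The call on Imp3 ended with all groups in 1 fit (adjusted p = 0.197). Of the 36 calls, 35 held with any library left out; Heatr1 (0.13) was the exception.

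The 6 h, 1 d and 4 d means were all below whole muscle for 24 members (61.5%), against 36.6% of 12113 genes at 1 RPKM or more in 3 of these libraries. They were all above it for 4 (10.3%, against 25.5%), Ddx21, Heatr1, Polr1a and Utp20. The 3 means are set against the same whole muscle libraries, so they are not independent, and the shares are descriptions. Those 4 were also among the genes higher in isolated cells than in whole muscle, a comparison that shares the whole muscle libraries. Dkc1 was at 19.1, 20.2, 21.1 and 21.8 RPKM in whole muscle and 9.9 to 10.7, 8.48 to 10.5 and 10.2 to 10.6 in the 4 d, 1 d and 6 h labels. Gnl3 was at 32.3, 33.3, 34.8 and 33.9 RPKM in whole muscle and 16.4 to 19.6, 21.3 to 22.9 and 20.3 to 22.7 in the same labels. All label libraries lay below whole muscle for both genes.

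Among other pathway genes 50 of 61 assembly genes were lower in the 4 d label and 6 higher, with Brix1 at 17.7 ± 0.579 against 43.4 ± 1.44 RPKM, 2.42-fold lower, adjusted p = 3.44e-11 and Las1l at 5.94 ± 0.158 against 14.8 ± 0.373 RPKM, 2.37-fold lower, adjusted p = 3.77e-11, both large-subunit factors. Of all genes tested, 56.4% were lower and 28.1% higher, against 82.0% and 9.84% of the 61 assembly genes. Of 11 polymerase I genes 8 were lower and 2 higher. Rrn3 was at 12.8 ± 0.388 against 25.8 ± 0.486 RPKM, 1.98-fold lower, adjusted p = 1.1e-10, Taf1b of the promoter selectivity complex at 5.58 ± 0.322 against 9.62 ± 0.282 RPKM, 1.66-fold lower, adjusted p = 1.19e-08 and Ubtf at 7.8 ± 0.322 against 8.97 ± 0.343 RPKM, 1.14-fold lower, adjusted p = 0.00123. In the Myc network 6 of 9 were lower and 3 higher, with Myc at 3.29 ± 0.281 against 5.29 ± 0.261 RPKM, 1.53-fold lower, adjusted p = 5.65e-07. Macrophage markers were lower in the label, 7 of 8. Fibre markers split, 4 higher and 7 lower of 12, which is 33.3% and 58.3%, near the shares of all genes.

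RNA tagged for 6 h in the animal was last compared with RNA tagged during the isolation of about 6 h. In the 6 h label 7 of 39 genes were higher and 7 lower, against 38.5% and 24.4% of 13003 genes, and both shares, 17.9%, lay below the background. The median log2 differences were 0.017 for members and 0.31 for all genes. With library sizes from all reads none was higher and 19 were lower (median of all genes -0.19), with median-of-ratios factors 3 were higher and 9 lower, and leaving out any 6 h library left 2 or 3 higher. Source and time of labelling both differ between these groups: the 6 h label came from whole hindlimb muscle and the isolation label from purified cells, so tissue and labelling cannot be told apart. Satellite cell markers took 0.00855% ± 5.51e-04 of reads in the 6 h label and 0.143% ± 0.0423 in the isolation label.

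Fbl was at 18, 19.2, 16.9 and 18.2 RPKM in the 6 h and 50.2, 55.6, 48.2 and 67.1 in the isolation label (log2 difference -1.58 ± 0.13 (SE), adjusted p = 1.42e-05). Nhp2 was at 24.6, 21.1, 22.7 and 24.7 against 64.2, 69.4, 56.3 and 92.3 RPKM (log2 difference -1.56 ± 0.16 (SE), adjusted p = 4.55e-05) and Nop58 at 15.5, 16.4, 15.5 and 15.6 against 43.4, 38.3, 33.5 and 60.5 RPKM (log2 difference -1.41 ± 0.18 (SE), adjusted p = 1.38e-04). No libraries overlapped. Ppan and Wdr74 were lower as well, with log2 differences of -1.25 and -0.97.

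Rrs1 was at 18.8, 23.1, 20.6 and 23.4 RPKM in the 6 h label and 13.8, 15.5, 9.07 and 7.91 in the isolation label (log2 difference 0.91 ± 0.22 (SE), adjusted p = 0.00522). Utp15 was at 5.87, 6.98, 6.54 and 6.93 against 6.35, 1.81, 3.19 and 2.68 RPKM (log2 difference 0.94 ± 0.29 (SE), adjusted p = 0.020), and the call ended without 6 h replicate 2 or 4 (adjusted p up to 0.0517). Its first isolation label library lay inside the 6 h range. Dkc1 was at 10.4, 10.6, 10.2 and 10.3 against 6.34, 10.8, 6.01 and 3.97 RPKM (log2 difference 0.66 ± 0.25 (SE), adjusted p = 0.0421). The second isolation label library lay above all 6 h libraries, and 7 of 8 fits with a library left out ended the call (adjusted p up to 0.0893). Imp3 stood at 46.2, 46, 45.7 and 47.6 RPKM in the 6 h label, all within the isolation label range of 38.9 to 50.001 (log2 difference 0.021 ± 0.12 (SE), adjusted p = 0.886). Calls held in every fit with a library left out for 7 of 14 genes: Fbl, Nop58, Nhp2, Wdr43, Rrs1, Wdr74 and Ppan.

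Of other pathway genes 28 of 62 assembly genes were higher in the 6 h label and 4 lower. Of all genes tested, 38.5% were higher and 24.4% lower. By share of reads, assembly genes were lower in the 6 h label, 0.197% ± 0.00846 against 0.255% ± 0.0159. So were polymerase I genes, 0.0279% ± 0.00151 against 0.0450% ± 0.00553. The direction of both lists thus rests on the scaling, and other library sizes were not examined for their genes. Eif6, which keeps the subunits apart, was at 26.2 ± 1.31 against 62.7 ± 8.65 RPKM, 2.35-fold lower, adjusted p = 5.4e-05 and Mphosph10, a partner of Imp3 and Imp4, at 12.8 ± 0.398 against 4.94 ± 0.85 RPKM, 2.46-fold higher, adjusted p = 6.27e-05. Of 11 polymerase I genes 6 were higher and 2 lower, with Twistnb, a polymerase I subunit, at 18.8 ± 0.663 against 5.02 ± 0.716 RPKM, 3.51-fold higher, adjusted p = 5.71e-06, Polr1d at 40.4 ± 1.16 against 92.2 ± 2.79 RPKM, 2.27-fold lower, adjusted p = 1.35e-05, Rrn3 at 14.3 ± 0.932 against 10.2 ± 2.0 RPKM, 1.4-fold higher, adjusted p = 0.0261 and Ubtf at 6.97 ± 0.351 against 5.16 ± 1.18 RPKM, 1.34-fold higher, adjusted p = 0.0476. In the Myc network 4 of 10 were higher and 2 lower, with Myc at 8.32 ± 0.381 against 101 ± 29.8 RPKM, 11.2-fold lower, adjusted p = 1.74e-06.

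Polr1b, a large subunit of polymerase I that forms part of its active site, was at 3.42 ± 0.0723 RPKM (SD, n = 4) in isolated cells, 3.2 ± 0.213 RPKM (SD, n = 4) in whole muscle, 3.17 ± 1.14 RPKM (SD, n = 4) in the isolation label and 3.17 ± 0.102 RPKM (SD, n = 4) in the 6 h label. It was called in 2 of the 7 comparisons, higher in the 6 h than in the 4 d label (0.22) and lower in the 4 d label than in whole muscle (-0.23). Both calls ended with all groups in 1 fit (adjusted p = 0.178 and 0.177), and the second also with library sizes from all reads (0.250). With those library sizes Polr1b was called higher in isolated cells than in whole muscle (1.38e-11), lower in the isolation label than in isolated cells (0.0177) and lower with alpha-amanitin (4.83e-04). Bysl, a small-subunit maturation factor, was at 4.15 ± 0.428 RPKM in isolated cells and 14.3 ± 0.46 in whole muscle, and 9.87 ± 2.0 in fixed against 9.8 ± 1.8 in unfixed cells. Mybbp1a, a nucleolar protein that binds Myb and polymerase I regulators, was at 20.4 ± 0.226 RPKM in isolated cells, 14.3 ± 0.357 in whole muscle and 9.44 ± 1.73 in the isolation label. Noc3l, a partner of Noc2l, was at 5.1 ± 0.313, 2.48 ± 0.118 and 2.51 ± 1.01 RPKM in those groups, and Utp18 of the processome at 6.52 ± 0.357, 4.14 ± 0.327 and 5.68 ± 3.17. Rrp9, the box C/D protein specific to the processome snoRNA, was at 8.83 ± 0.415, 12.5 ± 0.517 and 20.3 ± 9.99 RPKM.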

How the data were processed

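The authors deposited RPKM, reads per kilobase and library size, in 2 tables. Trim Galore, STAR, featureCounts of Subread, edgeR and the mm10 build are named in the submitters' processing notes; their versions and the use of strand are stated in no source used here. Libraries were made from oligo(dT)-primed cDNA and sequenced as pairs of 101 bp, per the labels' protocols. In the larger table the header stands 1 cell left of the values, and columns were assigned accordingly. Every value came out as a whole number of reads (tolerance 0.1 read), which gave depth and the authors' scaling; no value column was left out.

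Each comparison was fitted with limma 3.58.1 (R 4.3.3, trend) on log2(RPKM + 0.5), in its 2 groups, over genes that reached 1 RPKM in at least 3 libraries. A fold change is on that scale, which understates the change of low genes. Benjamini-Hochberg adjusted p under 0.05 was called. Libraries recur: whole muscle, isolated cells and the 4 d, 6 h and isolation labels each enter 2 comparisons, so their results are not independent. Genes named with values for each library were those called with the largest differences, up to 3 in each direction, with a mean of at least 5 RPKM in whichever group was higher, and a fixed set of 8 (Ncl, Npm1, Fbl, Nop56, Dkc1, Polr1b, Rrs1 and Gnl3); others were added after values were seen. Of the other lists the genes named are Myc, Ubtf and Rrn3 and those with the smallest adjusted p. The members and lists were chosen with earlier results of these data known. The marker lists of fibro-adipogenic and erythroid cells were summed likewise.

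Alternatives were a pseudocount of 1, no filter, library sizes from all reads, median-of-ratios factors, limma-voom on recovered reads, all groups in 1 fit, the replicate number as a block and leaving out each library; for alpha-amanitin also library sizes from mitochondrially encoded genes. Scripts were tested on simulated data. Python 3.11.15 with numpy 2.4.6, pandas 2.3.3 and matplotlib 3.10.9 was used.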

Additional observations from a re-analysis of the deposited data

Results flagged for a closer look

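In groups of 4 libraries, the highest or lowest value was compared with its neighbour for 8 genes and for the members' share of reads. In 4 of 81 such tests the gap to the neighbour took up more of the group's range than Dixon's limit, which chance exceeds in about 1 in 20 groups. Npm1 in the first alpha-amanitin library was 62.2 RPKM, with the nearest of the others at 83.3, and that library also held the lowest fibre marker share of its group, 0.811%, 2.05%, 2.19% and 2.54% in order of replicates. The authors' scaling was 1.54 in that library and 0.980, 0.920 and 0.917 in the others of its group. Npm1 in the first 6 h label library was 37.9 RPKM (nearest 39.9). Ncl in the first 4 d label library was 15.3 RPKM (nearest 16.1). Nop56 in the first isolation label library was 14.7 RPKM (nearest 15.4).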

How the results depend on the processing

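Library sizes from all reads changed the most counts. With them members called higher and lower became 34 and 3 in isolated cells against whole muscle, 5 and 25 in the isolation label against isolated cells, 10 and 13 with alpha-amanitin, and 0 and 19 in the 6 h against the isolation label, and 5 were lower in the 6 h against the 4 d label. Mitochondrial library sizes gave 0 higher and 37 lower with alpha-amanitin. Fitting all groups together left 5 lower in the 6 h against the 4 d label and 3 higher in the 4 d label against whole muscle, and median-of-ratios factors left 3 higher in the 6 h against the isolation label. With a library left out, counts ran from 6 to 22 higher and 3 to 5 lower with alpha-amanitin, 1 to 4 higher and 4 to 9 lower in fixed cells, and 2 to 8 higher in the 6 h against the isolation label. Counts in the other fits stayed within 1.5 times.

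Replicate numbers are shared between groups. Correlations of the deviations of same-numbered libraries ran from -0.59 to 0.24 and in no comparison exceeded 0.1 in all pairs. In the 4 d label against whole muscle they ran from 0.041 to 0.24, with 3 of 4 over 0.1. In isolated cells against whole muscle they ran from 0.0081 to 0.22, with 2 of 4 over 0.1, and with alpha-amanitin from -0.59 to -0.11. The main fits used no pairing. With the replicate block 1 member was higher with alpha-amanitin, 1 higher and 5 lower in fixed cells, over the 2 shared numbers, and 4 higher in the 6 h against the isolation label.

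Signs of genes called before or after the change turned with library sizes from all reads as follows. In isolated cells against whole muscle the log2 differences became 0.25 for Polr1c, 1.36 for Nop56, 1.07 for Rrp9, 0.36 for Dkc1, 1.14 for Gar1, 1.41 for Npm1, 1.03 for Wdr43, 0.95 for Noc4l, 0.84 for Imp4, 1.23 for Rrp12, 0.83 for Bop1, 0.66 for Pes1, 0.82 for Nop2, 0.0079 for Nop16, 1.02 for Rrs1 and 0.57 for Wdr74. In the isolation label they became -0.23 for Fbl, -0.59 for Npm1 and -0.61 for Nop2. With alpha-amanitin they became -0.32 for Dkc1, -0.50 for Ncl, -0.31 for Mybbp1a and -0.40 for Utp18. In the 6 h against the 4 d label they became 0.11 for Fbl, 0.038 for Wdr12 and 0.030 for Nop16, in the 6 h against the isolation label -0.22 for Ncl, -0.53 for Imp3, -0.52 for Pes1 and -0.13 for Wdr12, and in the 4 d label against whole muscle 0.13 for Rrp9, 0.012 for Rrp12 and 0.15 for Bop1. Median-of-ratios factors turned Tsr1 in isolated cells against whole muscle to -0.0020. The cause was not tested. Depth limits the isolation label most.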
